A study of Glycine max with 8 samples.

Results

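The sites described here are 249 regions of the soybean genome that carried a ChIP-seq peak of SNAP1 and of SNAP2 in both replicates and no peak of SNAP3 or SNAP4 in either replicate. ChIP-seq recovers and sequences the DNA that a tagged protein holds in the cell, and a peak is a stretch where the recovered fragments pile up. The peaks of all 8 libraries were merged into 21575 regions wherever they overlapped by 1 bp or more, and the 249 regions were 1.15% of them. They were 7.93% of the 3139 regions that had a peak in all 4 SNAP1 and SNAP2 libraries. Presence and absence of peaks chose the regions, so the counts and strengths below describe the choice and carry no test.

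The 8 libraries were made from nodulated hairy roots of soybean, each transformed with 1 of the 4 SNAP TFs fused to a FLAG tag, and every TF had 2 replicates. Each coding sequence was cloned from the cultivar Williams 82 and driven by the soybean pM4 promoter, not by its own promoter, and after formaldehyde fixation the chromatin was immunoprecipitated with a FLAG antibody. The sample labels call the genotype SNAP1 mutant, SNAP2 mutant, SNAP3 mutant or SNAP4 mutant, while the study describes tagged TFs, and that description is used here. All 8 libraries shared the tissue, root nodule in the labels, and the antibody. No nitrogen level is given for these roots, and no library from roots without a tagged TF was analysed here. Because the peaks give no expression values, the labelled tissue could not be checked against its marker genes.

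NAC proteins are a large plant family of TFs, named after the founding members NAM, ATAF and CUC, which bind DNA through a conserved domain at the amino end. They act as pairs, either of one protein with itself or of different family members, so that related NAC proteins can meet at one site. Members of the NAP branch are known for promoting senescence of leaves, and legume nodules, the root organs in which rhizobia fix nitrogen, also senesce, a process that nitrate speeds up. The question addressed here is which sites had peaks of SNAP1 and SNAP2 but of neither of the other SNAP TFs, and what lay at them.

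Regions of SNAP1 and SNAP2 only were the most numerous of the 6 sets defined by a pair of TFs when every deposited peak was used. The other pairs had between 26 regions (SNAP1 and SNAP3) and 72 regions (SNAP2 and SNAP4). The libraries differed in the number of peaks in the same direction. SNAP1 had 8426 and 9052 peaks and SNAP2 had 7937 and 9332, while SNAP3 had 6590 and 3628 and SNAP4 had 5888 and 6856. When each library was limited to its 3628 strongest peaks, the number of the smallest library, the pair SNAP1 and SNAP2 had 39 regions, fewer than SNAP2 and SNAP4 with 62 and SNAP3 and SNAP4 with 47. The lead of the pair was therefore seen with the full lists and not with lists of equal length.

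The 2 selections also held different regions. Only 7 of the 39 regions overlapped one of the 249, and the other 32 had a SNAP3 or SNAP4 peak in the full lists. Of the 249, 7 kept a peak in all 4 SNAP1 and SNAP2 libraries among the strongest peaks, 37 kept a peak in 3 of them and 58 in none. The number of reads in each library is unknown from the peak lists, so that fewer peaks cannot be told apart from fewer reads, and a missing peak of SNAP3 or SNAP4 is a missing call and not a measured absence of binding.

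**Figure D1:**
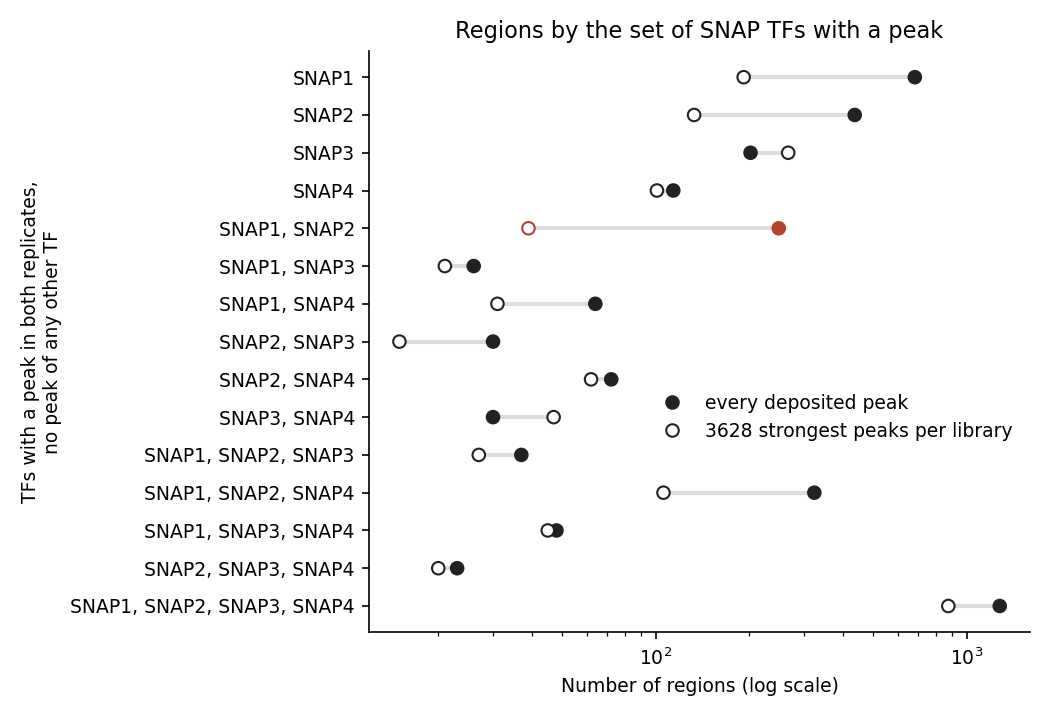
Number of merged regions (log axis) for each set of SNAP TFs, where a TF counts if both of its replicates had a peak and no other TF had any; filled points use every deposited peak and open points the 3628 strongest peaks of each library. The pair SNAP1 and SNAP2, in red, falls from 249 to 39 regions, while the regions with peaks of all 4 TFs fall from 1279 to 874.

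The rule also depended on single libraries. Leaving out a library asks for one condition fewer, and the count then rose to between 275 and 484 regions. It rose by more than 1.5 times without SNAP1 replicate 1 (378 regions), SNAP2 replicate 1 (484), SNAP2 replicate 2 (406), SNAP4 replicate 1 (374) and SNAP4 replicate 2 (455). Without SNAP3 replicate 2, the library with the fewest peaks, the count was 275.

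Many regions lay just outside the rule. In 423 regions, all 4 SNAP1 and SNAP2 libraries and exactly 1 of the other 4 had a peak, and that library was most often SNAP4 replicate 2 (204 regions) and least often SNAP3 replicate 2 (26 regions). The extra peak had a median −log10 q-value of 3.93, within a range of 1.32 to 9.91, where larger values mean a firmer call by the peak caller. In 615 regions, 3 of the 4 libraries and no other had a peak, and SNAP2 replicate 1 was the library most often missing, in 234. Inside the rule, the weakest of the 4 peaks of a region had a median −log10 q-value of 3.06, within a range of 1.48 to 5.89, so the ranges on the 2 sides of the rule overlapped. The member with the lowest value, 1.48 in SNAP2 replicate 2, was at chr10:6560744-6561495.

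The 249 regions were of middling strength within their libraries. Fold enrichment here is the value the authors' peak caller gave at the summit, and the strongest peak of each library in a region was used. Its lowest, median and highest values over the regions were 2.46, 4.60 and 6.71 in SNAP1 replicate 1. They were 2.42, 4.62 and 7.35 in SNAP1 replicate 2. In SNAP2 the values were 2.26, 4.11 and 8.05 in replicate 1 and 2.49, 4.09 and 6.74 in replicate 2. The 4 medians averaged 4.35 ± 0.292 (SD, n = 4 libraries), and they stood at percentiles 52.1, 55.0, 41.9 and 49.5 of all peaks in their own libraries.

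Regions with peaks in all 8 libraries were stronger in the same 4 libraries. Their median fold enrichment was 6.76 and 6.81 in SNAP1 and 6.18 and 6.09 in SNAP2. Regions of SNAP1, SNAP2 and SNAP4 without SNAP3 lay close to the 249, with medians of 4.66 and 4.71 in SNAP1 and 4.42 and 4.20 in SNAP2. The strongest peaks were nearly missing from the set. Among regions whose mean percentile over the 4 libraries was 80 or more, 5 of 1101 (0.454%) were of SNAP1 and SNAP2 only, against 109 of 670 (16.3%) at a mean percentile of 40 to 60.

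**Figure D2:**
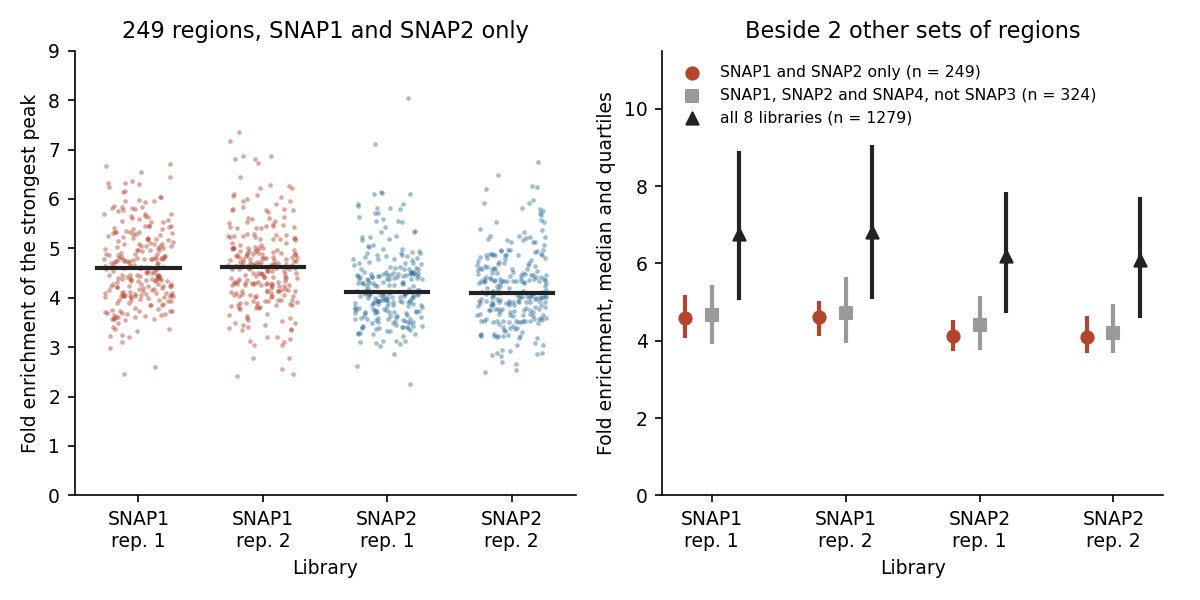
Left, fold enrichment of each of the 249 regions in the 4 libraries (1 point per region, black bar at the median), and right, medians (symbols) and quartiles (lines) beside the regions of SNAP1, SNAP2 and SNAP4 and those of all 8 libraries. The 249 regions have medians of 4.09 to 4.62, below the 6.09 to 6.81 of the regions found in all 8 libraries.

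Strength varied within a narrow range. The mean over the 4 libraries had a median of 4.42 and ran from 2.45 to 6.19, while the SD over the 4 libraries of a region had a median of 0.543, or 12.8% of the mean. Fold enrichment exceeded 4 in all 4 libraries in 80 regions and exceeded 5 in all 4 in 2, and 123 regions had no value above 5. These counts were not taken over the 3139 regions, so they describe the 249 alone. Spearman's rho of fold enrichment over the 249 regions was 0.499 between the SNAP1 replicates and 0.353 between the SNAP2 replicates, and 0.203 to 0.384 between libraries of different TFs. Over the 3139 regions with a peak in all 4 libraries it was 0.850, 0.784 and 0.731 to 0.753. The regions of one library share its reads, and the order of single regions was kept less closely within the 249 than over the 3139. The part of the narrower range of strength in this was not tested.

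Fold enrichment is not on one scale in all libraries, since the median over all peaks was 4.54 and 4.49 in SNAP1 and 4.297 and 4.119 in SNAP2. The order of the TFs by fold enrichment at single sites, given below, carries that difference between libraries. Ranks within a library do not carry its scale, but they depend on how many peaks its list holds. Ranked within its library, a region stood higher in both SNAP1 libraries than in both SNAP2 libraries in 61 of the 249 (24.5%), beside 24.1% of the 3139 regions with a peak in all 4. It stood higher in both SNAP2 libraries in 38 (15.3%), beside 21.1%. In the remaining regions the ranks of the 2 TFs overlapped.

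By median, the regions were narrower than the 3139 regions with a peak in all 4 SNAP1 and SNAP2 libraries. The median width was 557 bp, with quartiles of 443 and 674 bp, against a median of 637 bp for the 3139. It was 349 bp for all regions and 664 bp for the regions with peaks in all 8 libraries. A region spans all of its merged peaks, and the rule asks for peaks in 4 libraries. These medians therefore do not separate the width of a site from the number of its peaks. The 4 summits of a region spanned a median of 173 bp. That spread was shared by the regions with a peak in 1 or 2 further libraries (172 and 184 bp) and was larger in those of SNAP1, SNAP2 and SNAP4 (218 bp), while the same 4 summits spanned 99 bp in the regions with peaks in all 8 libraries. In 45 of the 249 (18.1%) the 4 summits fell within 100 bp, against 35.2% of the 3139. In 9 of the 249 (3.61%) they fell within 50 bp, against 13.0%. The median span over the 3139 was 139 bp, so the summits of the 249 lay further apart.

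Genes were placed with the RefSeq annotation of Glycine_max_v4.0, whose copy used here gives no strand, so the start and the end of a gene could not be told apart. That its coordinates match those of the peaks was checked through tRNA genes, of which 668 of 709 had the midpoint of a region within 200 bp. Here and below, the distance of a region from a gene is taken from the region's midpoint. A region can thus reach into a gene that its midpoint lies outside. By the midpoint of the region, 62 of the 249 (24.9%, 95% Wilson interval 19.9 to 30.6) lay inside a gene, against 40.02% of all regions and 49.6% of the regions with peaks in all 8 libraries. Another 72 (28.9%, 23.6 to 34.8) lay outside genes within 1 kb of a gene end, against 26.8% of all regions, and 26 (10.4%) lay 1 to 2 kb away, against 7.99%. The remaining 89 (35.7%, 30.05 to 41.9) were more than 2 kb from every gene, against 25.2% of all regions. Regions of SNAP1 alone and of SNAP2 alone lay between these values, with 30.4% (27.1 to 34.002) and 33.9% (29.7 to 38.5) inside a gene and 28.5 and 26.8% more than 2 kb away. The intervals cover counting error only, and these differences between sets of regions were not tested.

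Sites far from genes reached well into the intergenic space. The midpoint was more than 5 kb from every gene in 61 regions (24.5%, against 13.7% of all regions) and more than 10 kb in 24 (9.64%, against 5.16%), and the largest distance was 46051 bp. Gene density around the sites was ordinary, with a median of 18 protein-coding genes within 100 kb, beside 17 for all regions. Of the 62 regions inside genes, 40 had their midpoint within 500 bp of a gene end and 4 lay more than 2 kb from both ends. The genes that held these midpoints had a median length of 4115 bp. The same counts were not taken for other sets of regions, so no preference for gene ends is read from them. The share inside a gene was 23.7% (9 of 38) among the members with a −log10 q-value of 4 or more in all 4 libraries. Among the 39 regions of equal lists, 32 of which are not members, it was 38.5%, and 2 of the 7 members among them were inside a gene.

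**Figure D3:**
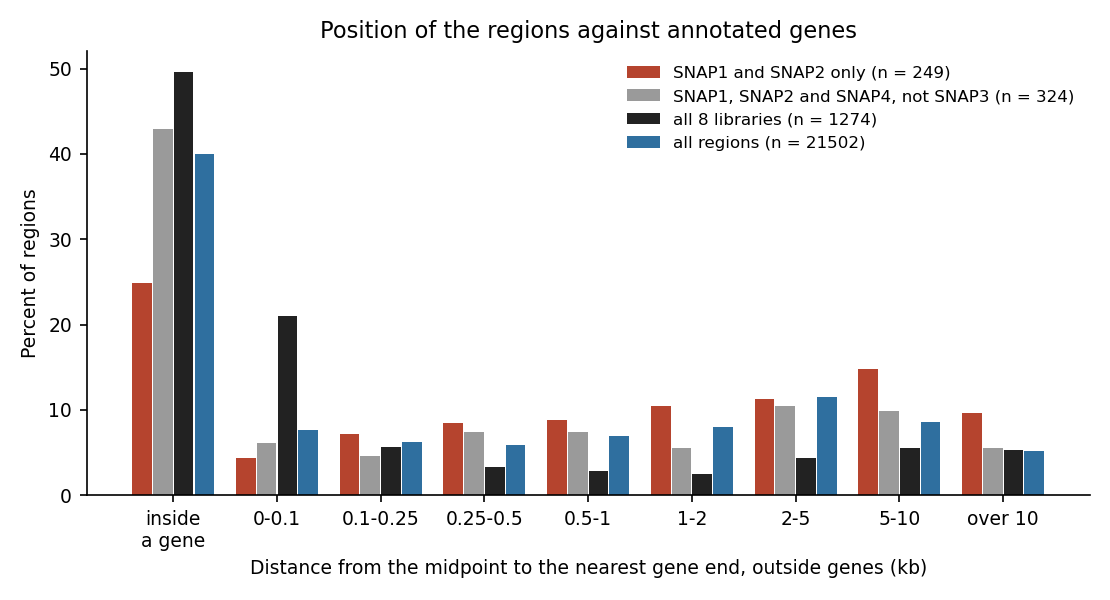
Percent of regions by the position of the midpoint, inside a gene or by distance (kb) from the nearest gene end, for the 249 regions, the regions of SNAP1, SNAP2 and SNAP4, those of all 8 libraries and all regions on the chromosomes. The 249 regions have the lowest bar inside genes (24.9%) and the highest beyond 10 kb (9.64%).

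The share inside genes was higher where more peaks of the other TFs were found, with a level step from 2 to 3, when regions were split by the number of SNAP3 and SNAP4 libraries that had a peak. Among the 3139 regions with a peak in all 4 SNAP1 and SNAP2 libraries, it was 24.9, 30.1, 41.5, 40.7 and 49.6% with a peak in 0, 1, 2, 3 and 4 of the other libraries. The share more than 2 kb from every gene was 35.7, 30.8, 25.9, 22.8 and 15.1%. Strength rose along the same series, from a median of the mean fold enrichment of 4.42 to 6.45. Among regions of middle strength, with a mean percentile of 20 to 80, the share inside genes was 23.3, 29.6, 37.8, 41.4 and 60.0%, and the share far from genes was 37.9, 31.8, 26.9, 25.3 and 13.3%. Strength was closer but not equal in this band, with medians of the mean fold enrichment of 4.44, 4.69, 4.65, 4.69 and 4.74. The shares at either end lay further apart in this band than in the whole set. Width rose as well in the regions of middle strength, from 546 to 1010 bp. The parts of width and of the remaining difference in strength in the gradient were not tested.

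**Figure D4:**
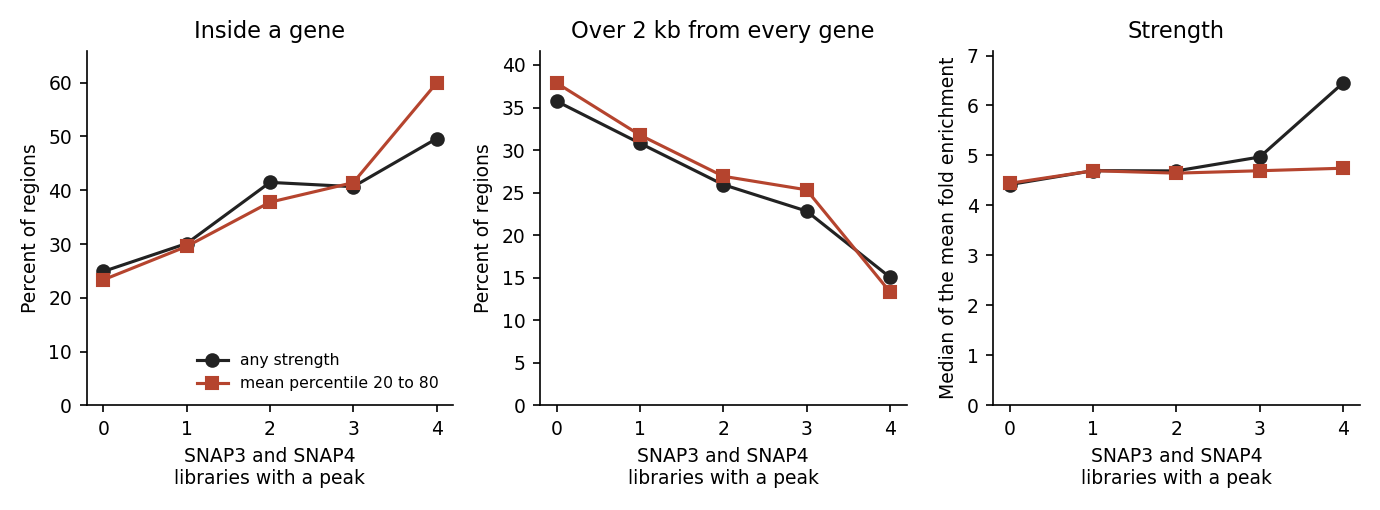
Regions with a peak in all 4 SNAP1 and SNAP2 libraries, split by how many of the 4 SNAP3 and SNAP4 libraries (x axis) had a peak, showing the percent inside a gene, the percent more than 2 kb from every gene and the median of the mean fold enrichment. Black points are regions of any strength and red points those with a mean percentile of 20 to 80, and in both the share inside genes is lowest at 0 libraries, 24.9 and 23.3%.

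Of the 249 regions, 160 (64.3%, 58.1 to 70.0) were assigned to a gene, the one that held the midpoint or had its nearest end within 2 kb, and these were 160 different genes. Protein-coding genes made up 144 of them (90.0%, 84.4 to 93.8), close to the 89.4% of all assigned regions. The others were 7 long noncoding RNA genes, 6 pseudogenes, 2 tRNA genes and 1 snRNA gene. The regions with peaks in all 8 libraries were at tRNA genes in 41.3% of assigned cases, 447 in number. The 2 tRNA genes of the present set were 1.25%, below the 3.89% of all assigned regions and above the 0.206 and 0.313% of the regions of SNAP1 alone and SNAP2 alone. The tRNA share rose with the number of SNAP3 and SNAP4 libraries with a peak, from 0.803% through 3.79, 7.51 and 14.0 to 35.1% of regions. Among regions with a mean percentile of 20 to 80 it ran only from 0.441 to 3.75%.

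One of the tRNA genes was among the strongest sites. At TRNAH-GUG, a gene for a histidine tRNA, the region chr7:42446816-42447277 had fold enrichments of 6.71 and 6.73 in the SNAP1 libraries and 4.66 and 5.21 in the SNAP2 libraries, so both SNAP1 values were above both SNAP2 values, and the 4 summits fell within 42 bp. At TRNAE-UUC, a gene for a glutamate tRNA, the region chr2:5148539-5149036 had values of 4.74, 4.71, 3.99 and 3.65 in the same order. A SNAP3 or SNAP4 peak lay 1473 bp from it. Symbols such as these are shared by many near-identical tRNA genes, so reads placed at one copy could come from another, although the authors kept only uniquely mapped reads of high mapping quality.

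By symbol, 5 of the assigned genes were TF genes of the lists. Only 2596 of the 46816 protein-coding genes (5.55%) carry a symbol or synonym of their own in the annotation used, and 9 of the 144 (6.25%) were such genes, so gene families could be followed only in part. Of 28 gene lists matched by symbol, 6 had a member. Over all 11380 protein-coding genes with any region, 144 (1.27%) had a member, and over the 10 TF lists it was 5 of 205 (2.44%). At such shares the counts of single lists are too small to be read as more than counts. WRKY TFs, which act in defense and senescence, had 2 of the 48 listed genes with any region, and NAC TFs had 1 of 29. Ethylene response factors had 1 of 20 and bZIP TFs 1 of 46. MYB TFs had 0 of 37 and heat stress TFs 0 of 17, although 6 and 9 genes of these lists had a region with all 4 SNAP1 and SNAP2 libraries. No member was assigned to a gene of the lists for nitrate and ammonium transport (0 of 10), NIN-like TFs (0 of 4), nodulins (0 of 5), SWEET sugar transporters (0 of 9) or auxin response (0 of 10). Only 1 nodulin gene and 4 auxin genes of these lists had a region with all 4 SNAP1 and SNAP2 libraries, which the rule requires.

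The NAC gene was NAC51, a member of the same TF family as the tagged proteins. The midpoint of its region, chr7:41233773-41234292, lay 110 bp from the gene. The region had fold enrichments of 4.82 and 4.47 in SNAP1 and 4.305 and 4.343 in SNAP2 (mean 4.49 ± 0.235, SD, n = 4 libraries). All values lay within a narrow range, SNAP1 slightly higher, but the summits spanned 319 bp. By rank within the library the TFs overlapped, at percentiles 60.0 and 49.4 in SNAP1 and 50.3 and 59.0 in SNAP2. NAC11, the gene of SNAP4 itself, had no region of any kind assigned.

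The WRKY genes differed in strength between libraries. WRKY5 lay 148 bp from the midpoint of the region chr1:45125516-45126146. This region had 3.65 and 4.40 in SNAP1 and 4.33 and 6.20 in SNAP2. The last library was high and the other 3 overlapped. WRKY25 lay 671 bp from the midpoint of the region chr8:901319-901719. This region had 4.34 and 4.94 in SNAP1 and 3.82 and 2.94 in SNAP2, so both SNAP1 values were above both SNAP2 values.

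The bZIP gene BZIP112, from a family of TFs that includes effectors of abscisic acid signaling, lay 423 bp from the midpoint of chr13:36849919-36850742. The region had 4.46 and 4.69 in SNAP1 and 3.59 and 5.16 in SNAP2, the SNAP2 replicates lying on either side of SNAP1. ERF6, an ethylene response factor, lay 1766 bp from the midpoint of chr12:40083645-40084332. That region was weak in each library (3.74, 3.65, 3.82 and 3.23), and a SNAP3 or SNAP4 peak was 1271 bp away.

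Other genes with a symbol act in the circadian clock, calcium signaling and isoflavone metabolism, and apart from PRR3B they were picked after their values had been seen. PRR3B, a pseudo-response regulator of the circadian clock, lay 160 bp from the midpoint of chr12:5493177-5493534. That region had 4.43 and 5.30 in SNAP1 and 5.63 and 3.81 in SNAP2. SCAM-3, a calmodulin that senses calcium, lay 80 bp from the midpoint of chr19:23400342-23400813. That region had 3.80 and 4.64 in SNAP1 and 4.53 and 3.51 in SNAP2. The values of the TFs overlapped at both genes. IF7MaT, which encodes a malonyltransferase of isoflavone glucosides, lay 335 bp from the midpoint of chr13:14451716-14452400. Its values were 4.63 and 3.79 in SNAP1 and 3.39 and 3.92 in SNAP2, and the nearest SNAP3 or SNAP4 peak was 80714 bp away.

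Of the 7 regions of highest mean fold enrichment, 4 were more than 2 kb from every gene, 1 was at TRNAH-GUG and the others were near genes known only by a locus name. The highest of all was chr5:31792665-31793277, whose midpoint lay 70 bp from the pseudogene LOC100777450. That region had 5.97 and 5.49 in SNAP1 and 8.05 and 5.26 in SNAP2 (mean 6.19 ± 1.27, SD, n = 4 libraries). The value of SNAP2 replicate 1 stood apart from the other 3. Among protein-coding genes the first was LOC100811066, 500 bp from the midpoint of chr18:48020377-48020789. This region had 6.44 and 6.29 in SNAP1 and 5.80 and 5.68 in SNAP2 (mean 6.05 ± 0.371). It was above 5 in all 4 libraries, its summits fell within 42 bp, and its weakest −log10 q-value of 5.89 was the highest in the set.

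LOC121173270 and LOC100819003 followed. The first lay 454 bp from the midpoint of chr13:15078476-15078940, with 6.37 and 5.51 in SNAP1 and 6.10 and 4.42 in SNAP2. The second lay 46 bp from the midpoint of chr7:16001062-16001660, with 6.66 and 6.88 in SNAP1 and 4.04 and 4.37 in SNAP2. The TFs overlapped at the first gene and stood clearly apart at the second, where SNAP1 was higher.

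Other protein-coding genes of high mean showed the opposite order. LOC100777720 lay 44 bp from the midpoint of chr10:5261588-5262147, with 4.10 and 4.69 in SNAP1 and 6.15 and 5.72 in SNAP2. LOC100816069 lay 430 bp from the midpoint of chr18:984816-985215. It had 4.81 and 5.03 in SNAP1 and 5.44 and 5.23 in SNAP2, a mean of 5.13 ± 0.271 (SD, n = 4 libraries). SNAP2 was the higher TF at both, by little in fold enrichment at the second. Ranked within libraries, the second stood at percentiles 59.7 and 67.8 in SNAP1 and 81.6 and 82.5 in SNAP2.

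In 2 of the strongest cases the midpoint of the region lay inside the gene. LOC100797572 held the midpoint of chr2:4983953-4984718, with 4.42 and 5.97 in SNAP1 and 5.72 and 5.82 in SNAP2. LOC100794879 held that of chr16:6857357-6857957, with 5.76 and 4.61 in SNAP1 and 5.32 and 5.19 in SNAP2. The SNAP1 replicates differed more than the SNAP2 replicates at both. The 20 protein-coding genes of highest mean ended with PRR3B at 4.79. At 7 of the first 10, the midpoint of the region lay outside the gene and within 500 bp of it.

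Among the other classes, the long noncoding RNA gene LOC106798112 had a mean of 5.08 ± 0.581 (SD, n = 4 libraries), and its 4 summits fell within 37 bp. LOC121173120, of the same class, had 5.19 and 5.01 in SNAP1 and 3.68 and 6.25 in SNAP2, so the SNAP2 replicates lay on either side of SNAP1. The snRNA gene LOC113002500 lay 1258 bp from the midpoint of chr8:1381630-1382087. That region was weak and even, with 3.25 and 3.20 in SNAP1 and 3.12 and 3.04 in SNAP2. The weakest region of the whole set was chr7:36727041-36727630, with 2.60 and 2.42 in SNAP1 and 2.26 and 2.54 in SNAP2 (mean 2.45 ± 0.151).

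**Figure D5:**
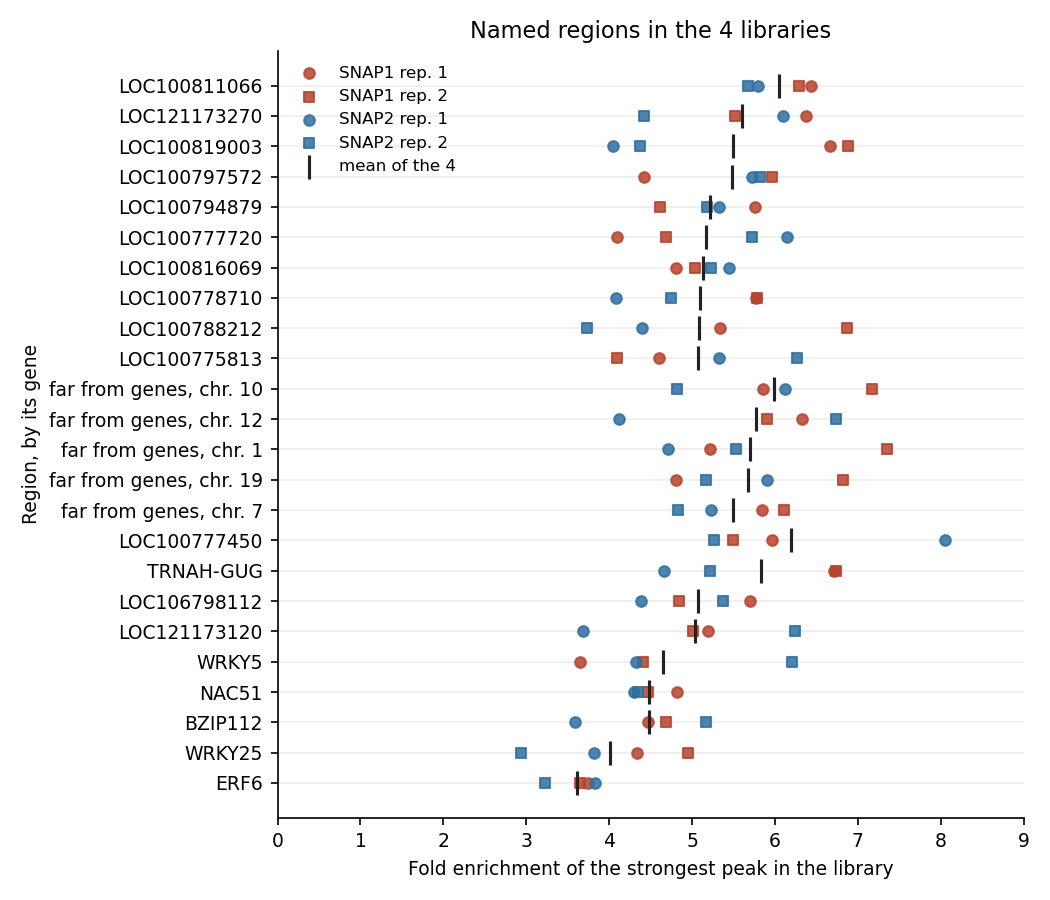
Fold enrichment of the strongest peak in each of the 4 libraries (red, SNAP1; blue, SNAP2; circles, replicate 1; squares, replicate 2; black bar, mean of the 4) for named regions, by gene. At LOC100819003 SNAP1 stands above SNAP2 (6.66 and 6.88 against 4.04 and 4.37), and at LOC100777720 below it (4.10 and 4.69 against 6.15 and 5.72), while at NAC51 the 4 values nearly coincide.

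Regions more than 2 kb from every gene were no weaker than those at genes, with a median of the mean fold enrichment of 4.57 (n = 89) against 4.33 (n = 160). The first of these by mean, chr10:9416361-9416953, had its nearest gene 12689 bp away and values of 5.85 and 7.17 in SNAP1 and 6.12 and 4.81 in SNAP2 (mean 5.99 ± 0.968, SD, n = 4 libraries). The next was chr12:2936116-2936550, 9032 bp from BZIP124, with 6.33 and 5.90 in SNAP1 and 4.12 and 6.74 in SNAP2. Another, chr1:41676293-41676861, lay 44698 bp from any gene and had 5.22 and 7.35 in SNAP1 and 4.71 and 5.53 in SNAP2. In each of the 3 the replicates of one TF differed by more than 1, so none favored either TF.

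The remaining regions of the 5 strongest far from genes were chr19:32795518-32796234 and chr7:12378101-12378535. The former had 4.81 and 6.82 in SNAP1 and 5.90 and 5.17 in SNAP2, with summits within 33 bp. The latter, 30267 bp from a gene, had 5.84 and 6.10 in SNAP1 and 5.23 and 4.82 in SNAP2, so the SNAP1 values were the higher ones.

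Among the 89 regions more than 2 kb from every gene, those nearest to NLP4 and NINA were picked for nodule or nitrogen biology after their values had been seen. The other nearest genes with a symbol were BZIP124, DEP1, ALDH2B2, ASP1, WRKY9, LBD5, GRF9, RNF12 and PIP2-6, so no theme is read from the choice. The region chr12:40072645-40073003 lay 5057 bp from NLP4, a NIN-like TF of the family that mediates nitrate responses, with 6.14 and 5.41 in SNAP1 and 4.85 and 4.20 in SNAP2. It was 10641 bp from the region near ERF6, one of 6 neighboring pairs of members within 20 kb. The region chr4:81260-81764 lay 5725 bp from NINA, by its symbol a relative of NIN, the TF that starts nodule formation, and had 5.69 and 4.25 in SNAP1 and 3.86 and 3.66 in SNAP2. Both SNAP1 values were above both SNAP2 values at either site, and both regions lay too far from these genes to be assigned to them.

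A stricter reading kept 38 of the 249 regions (15.3%), those with a −log10 q-value of 4 or more in all 4 libraries. Of these, 22 were assigned to a gene, 19 of them to a protein-coding gene, and 16 were more than 2 kb from every gene. NAC51, ERF6, both tRNA genes and the region near NLP4 were among the 38, and WRKY5, WRKY25, BZIP112 and PRR3B were not.

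Among the 38 were the 7 regions that kept all 4 peaks in lists of equal length. They were those at LOC100811066, TRNAH-GUG, LOC100816069, LOC100785891 and LOC100789689, the region near NLP4 and chr17:3684601-3685059, 6868 bp from DEP1. The region of LOC100785891, chr8:3601243-3601639, had 5.21 and 4.82 in SNAP1 and 4.57 and 4.33 in SNAP2, and that of LOC100789689, chr11:8510364-8510785, had 4.62 and 4.82 in SNAP1 and 4.16 and 4.23 in SNAP2. In 5 of the 7, both SNAP1 values were above both SNAP2 values, and in 1 the order was the reverse. By rank within the library the counts were 3 and 1.

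The genes at these sites were not all free of SNAP3 and SNAP4. Of the 160 assigned genes, 109 had no other region and 51 had another, which carried a SNAP3 or SNAP4 peak at 32 genes (20%). At 12 genes it carried both replicates of SNAP3 or of SNAP4, and at 3 it was a region with peaks in all 8 libraries. Measured along the chromosome, the nearest SNAP3 or SNAP4 peak was a median of 12759 bp away, within 2 kb in 30 regions (12.0%) and more than 10 kb away in 144 (57.8%). The closest case with a named gene was OSBP, by its symbol an oxysterol-binding protein, whose region chr6:8823248-8823842 had 5.12 and 4.02 in SNAP1 and 3.94 and 4.88 in SNAP2 and a SNAP3 or SNAP4 peak 150 bp away. The absence of SNAP3 and SNAP4 peaks thus held for the region and, at these 32 genes, not for the gene.

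The regions were spread over all 20 chromosomes, from 8 on chromosome 20 to 20 each on chromosomes 8 and 13, and none lay on an unplaced scaffold. As a share of the regions of a chromosome they made up between 0.819% on chromosome 11 and 1.64% on chromosome 1.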

How the data were processed

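ChIP-seq libraries of nodulated hairy roots with FLAG-tagged SNAP1, SNAP2, SNAP3 or SNAP4 (2 replicates each) were grouped by their titles. The authors trimmed reads with Trim Galore 0.6.6, used Bowtie2 2.3.4.3 for alignment to Wm82 a4.v1, kept properly paired, uniquely mapped reads with SAMtools and called peaks per library with MACS2 2.2.7.1 at a q-value of 0.05; no control library is named for the calls. The deposited lists give position, score, summit, fold enrichment as a ratio, −log10 p-value and −log10 q-value. Fold enrichment can rise with duplicate fragments and depends on the library's background, so some results use its rank within the library. The means over the 4 libraries, the choice of named genes and the order of the TFs at named regions use unranked values, except where ranks are given. Read depth is not given in the lists, and precision is given as Wilson 95% intervals of shares.

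Peaks overlapping by 1 bp or more were chained into regions. Genes were assigned by midpoint (the gene holding it, else the nearest end within 2 kb). Positions use the 20 chromosomes only. Percentiles rank a peak's fold enrichment in its library. Named genes were the 20 protein-coding genes of highest mean fold enrichment, the 5 strongest members far from genes, the 5 highest and 5 lowest of other classes and members of the gene lists; others are said to be picked afterwards. The members, lists and alternatives were chosen with earlier results of these data known. Merging was tested on simulated peaks. Python 3.11.15, pandas 2.3.3, numpy 2.4.6, SciPy 1.17.1 and matplotlib 3.10.9 were used. Promoter and protein sequences were not used here, so the CACGT motif was not searched, and WRKY6 and DnaJ genes and the SNAP genes other than SNAP4 (NAC11) were not matched. The labels name no batch.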

Additional observations from a re-analysis of the deposited data

How the results depend on the processing

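The count of 249 regions was the result that depended most on the processing. It fell to 148 with a q-value of 0.0001 or less in all 8 libraries, to 39 with the same number of strongest peaks, and to 38 with that q-value in SNAP1 and SNAP2 only. It stayed within 1.5 times under a q-value of 0.01 (253 regions, 236 of which overlapped one of the 249), summits within 200 bp (220), an overlap of 50% of the shorter peak (241) and no SNAP3 or SNAP4 peak within 500 bp (241). Leaving out each library in turn gave 275 to 484 regions. The share assigned to a gene was 53.8% with a limit of 1 kb and 75.5% with 5 kb, and 64.2 to 67.4% without each library. The share inside a gene was 38.5% with equal numbers of peaks and 25.1 to 27.8% without each library. The causes of these changes were not tested, apart from the looser rule when a library is left out. Shares at protein-coding genes and median fold enrichment moved by less than their error under every alternative run for them, 87.8 to 93.2% and 4.27 to 4.49 without each library. With equal numbers of peaks, chosen after seeing the data for the other pairs, SNAP1 and SNAP3 had 21 regions, SNAP1 and SNAP4 31, SNAP2 and SNAP3 15, SNAP2 and SNAP4 62 and SNAP3 and SNAP4 47. The share of promoters with CACGT and its alternatives were not run. No paired analysis was possible because no result came from a test between groups. With 2 libraries per TF, unknown read depth and no untagged control analysed here, the set holds calls at a threshold, and a missing peak does not show missing binding.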
